A study of Rattus norvegicus with 9 samples.

Results

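The striatum of rats labelled edaravone dexborneol (EDB) was compared with that of rats labelled Sham. The comparison takes 6 of the 9 libraries of the series, the 3 of each of these groups, chosen by their labels, and every gene that passed a filter on low counts, 14274 of the 22890 gene IDs in the count tables. The remaining 3 libraries are labelled intracerebral hemorrhage (ICH), a bleed into brain tissue, and their values stand beside the results as the level in the injury group. The ICH libraries also entered the filter and the shared estimate of the spread behind each p-value. All 9 libraries were made from striatal total RNA of Rattus norvegicus. The labels name each group only as Sham, ICH or EDB, and the sources used here give no strain, sex, age, dose, time after surgery or way of making the bleed, nor whether the EDB rats had one. Whether each library comes from its own animal is also not stated, and p-values therefore measure only the spread between these samples, which may be technical.

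Edaravone is a scavenger of free radicals, and dexborneol is a bicyclic terpene alcohol given with it in a combined formulation used in ischaemic stroke. After a bleed into the striatum, lysed red cells release haemoglobin, haem and iron, microglia and incoming macrophages clear the debris through Fc, complement and scavenger receptors and lysosomal proteases, and astrocytes around the lesion build up the intermediate filament Gfap. Haem oxygenase 1 breaks down haem, and genes driven by the factor Nrf2 oppose oxidative damage. Medium spiny neurons, the main cell type of the striatum, carry dopamine receptors and respond to input with immediate early genes such as Fos, Arc and the Egr and Nr4a families.

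The labelled tissue carried its markers: the medium spiny neuron phosphoprotein Ppp1r1b stood at 4029, 6174 and 3246 CPM (read counts relative to library size, scaled by TMM) in Sham 1, 2 and 3 and at 4145, 4075 and 3688 CPM in EDB 1, 2 and 3. Total counts ran from 14658110 to 17659936 over the 9 libraries. In a principal component analysis of the 6 libraries, component 1 (41.2% of the variance) parted Sham from EDB, with Sham 2 nearest to the EDB libraries, and component 2 (22.0%) set Sham 2 apart from the rest. Choroid plexus transcripts were by far the highest in EDB 3. Transcripts of 13 mitochondrially encoded genes took 7.54%, 5.55% and 12% of counts in the Sham libraries and 4.84%, 4.56% and 5.93% in the EDB libraries. The part of these differences in the results was not tested.

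More genes were higher than lower in EDB. Of 14274 genes tested, 1094 (7.66%) were called in EDB against Sham at an adjusted p under 0.05, 707 (4.95%) risen and 387 (2.71%) fallen. Among 44 gene lists, those of Fc receptors, microglia and macrophages, lysosomes, interferon response, damage-associated phagocytes and complement had the highest shares of risen members, and most risen genes belonged to none of the lists. The genes that fell included 11 of 18 immediate early genes, some synaptic scaffolds and some vessel wall genes. Rises were larger: the median log2 fold change was 1.17 among risen genes and -0.74 among fallen genes, and 416 risen against 112 fallen genes differed by more than 1 on the log2 scale. The 3 EDB libraries lay fully above the 3 Sham libraries in 706 of the 707 risen genes and fully below in 384 of the 387 fallen ones, while such a separation in either direction occurred in 26.1% of all genes tested. The calls were made on these same libraries, so the separation of called genes is no separate evidence for them. In the 32 of 44 gene lists with 0 fallen members by edgeR, 25 members were lower at an unadjusted p under 0.05, 10 were called lower by DESeq2 and 0 by limma-voom. Leaving out 1 library moved the number of calls between 508 and 1661: it was 590, 1661 and 577 on dropping Sham 1, 2 and 3 in turn and 508 on dropping EDB 1. Without both Sham 2 and EDB 3 it was 1252, of which 792 were among the 1094. These fits included ICH libraries. A fit of only the 6 EDB and Sham libraries called 789 of 13914 genes, 538 risen and 251 fallen. Of these 789 genes, 743 were among the 1094.

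**Figure D1:**
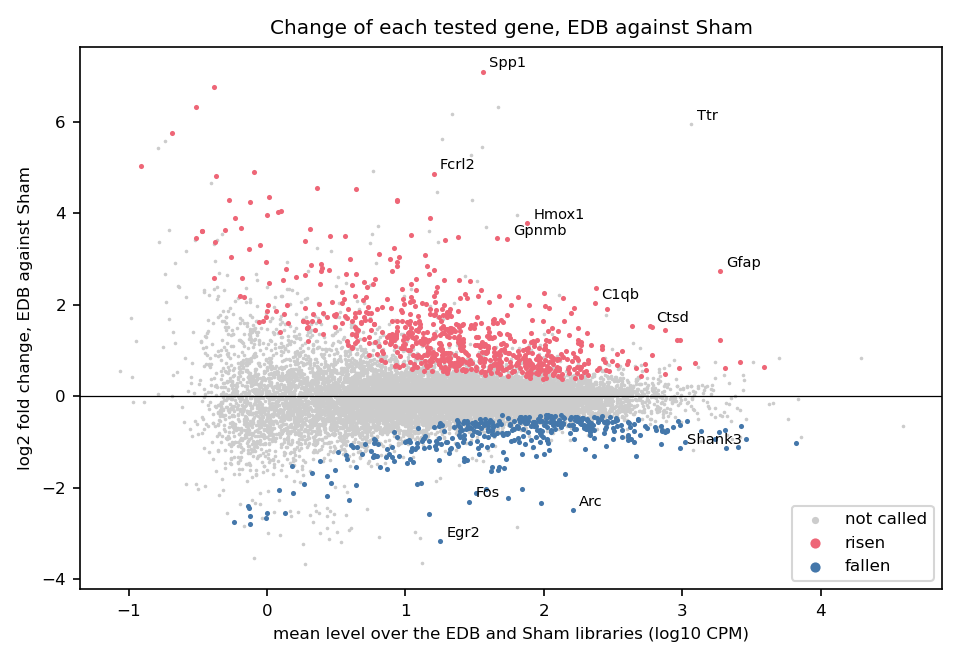
Log2 fold change of EDB against Sham (vertical axis) against the mean level over the 6 libraries (horizontal axis, log10 CPM), 1 point for each of the 14274 genes tested. Red points are the 707 risen genes, blue points the 387 fallen genes and grey points those not called. Spp1, the point highest up among the labelled genes, is at 7.10, and Ttr is grey although its fold change is large.

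Values in brackets after a gene are its log2 fold change in EDB against Sham, with the standard error (SE) after ±. Sentences on calls that did not hold leave out 2 alternative runs. One takes the replicate numbers as a block, and its losses are given in the closing section. The other sets a minimum log2 fold change of 1, which every called gene with a smaller change fails. The largest rise among genes of at least 5 CPM was that of Spp1, which encodes osteopontin, a secreted phosphoprotein of activated phagocytes. It stood at 0.312, 0.752 and 0.496 CPM in Sham 1, 2 and 3 and at 88.3, 82.3 and 44.6 CPM in EDB 1, 2 and 3. Each EDB library thus stood far above each Sham library, and the log2 fold change was 7.10 ± 1.0 (SE; adjusted p = 0.0034). In the ICH libraries Spp1 stood at 1912, 380.1 and 295 CPM, with ICH 1 far above the other two. The Spp1 call did not hold with limma-voom (adjusted p = 0.0559). Fcrl2, an Fc receptor-like gene, was at 1.44, 0.616 and 1.06 CPM in Sham and at 33.3, 41.4 and 17.8 CPM in EDB, a rise of 4.87 ± 0.37 (adjusted p = 0.000129). Its 3 EDB values did not overlap the Sham values, EDB 3 being the lowest of the EDB libraries. Lgals3, which encodes galectin-3, a lectin of phagocytes, rose from 1.37, 2.46 and 1.84 CPM to 49.6, 18.9 and 16.1 CPM, by 3.9 ± 0.51 (adjusted p = 0.00159). EDB 1 stood apart from EDB 2 and EDB 3, which were close to each other. Plac8 (4.30), a gene of circulating myeloid cells, Zbp1 (4.28), an interferon-induced sensor of nucleic acids, Hmox1 (3.78), S100a4 (3.52), Capn3 (3.51) and Fcgr3a (3.48), an activating receptor for immunoglobulin G, completed the 10 largest rises, together with Pla2g5. Pla2g5, a secreted phospholipase, was at 0.187, 0.684 and 0.212 CPM in Sham and at 2.35, 1.26 and 21.8 CPM in EDB, so that its log2 fold change of 4.53 ± 1.11 (adjusted p = 0.0334) rested on EDB 3 and was 2.30 without it. The Pla2g5 call did not hold without any single Sham library, EDB 3, or ICH 2 (adjusted p = 0.0556 to 0.154), with no filter on low counts (adjusted p = 0.0753), with limma-voom (adjusted p = 0.205) or in a fit of only the 6 libraries (adjusted p = 0.067).

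**Figure D2:**
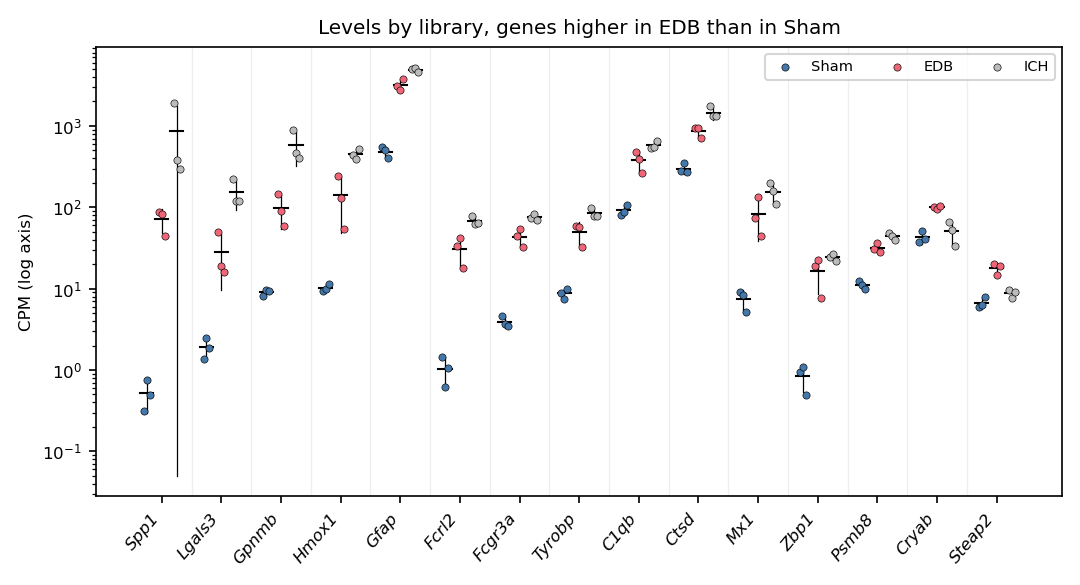
Level of 15 genes called higher in EDB than in Sham, in CPM on a log axis. Points are libraries 1 to 3 of Sham (blue), EDB (red) and ICH (grey), from left to right, horizontal bars are group means and vertical lines are ± 1 SD, with the lower end of the line for Spp1 in ICH drawn to 0.05 CPM because the SD exceeds the mean. In each gene the EDB points lie above the Sham points, and in Cryab and Steap2 they also lie above the ICH points.

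Genes shared by microglia and macrophages, the resident and incoming phagocytes, were higher in EDB nearly throughout. Of 15 tested genes of this list 13 rose and 0 fell, with a median log2 fold change of 1.61 beside -0.01 over all genes; the number risen ran from 11 to 14 when each library was left out in turn. Tyrobp, the signalling adaptor of several phagocyte receptors, was at 8.94, 7.46 and 9.77 CPM in Sham and 59.6, 58.0 and 32.3 CPM in EDB and rose by 2.52 ± 0.24 (adjusted p = 0.000467). Aif1, which encodes the microglial marker Iba1, was at 6.69, 8.41 and 8.99 CPM in Sham and 34.1, 27.9 and 17.9 CPM in EDB and rose by 1.73 ± 0.23 (adjusted p = 0.00166). In both genes EDB 3 was the lowest EDB library and still stood above each Sham library. Cd68 (3.42), a late endosomal protein of phagocytes, Itgam (2.18), which encodes the alpha chain of complement receptor 3, Spi1 (1.73), the master transcription factor of myeloid cells, and Csf1r (1.55), the receptor on which microglia depend, also rose. The list summed to 751, 733 and 928 CPM in Sham, 2199, 2266 and 1329.5 CPM in EDB and 2904, 2652 and 2708 CPM in ICH. EDB 3 was the lowest EDB library in 13 of the 13 genes of this list that rose, and in 450 of all 707 risen genes. In bulk tissue, more cells of a type and more RNA per cell cannot be told apart, here or in the lists that follow.

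Fewer genes that mark resting microglia were called. Of 13 tested homeostatic microglia genes 3 rose and 0 fell (median 0.77), and the number risen stayed at 3 when each library was left out in turn. The called share was 23.1%, beside 7.66% of all genes tested. All 13 had a log2 fold change above 0, as did 7022 of all 14274 genes. Cx3cr1, the fractalkine receptor, stood at 114, 99.7 and 103 CPM in Sham and 261, 303 and 176 CPM in EDB and rose by 1.22 ± 0.17 (adjusted p = 0.00204). Sall1 (1.11), a transcription factor of microglial identity, and the fructose transporter gene Slc2a5 (1.61) were the other two. P2ry12, a purinergic receptor of surveying microglia, was at 10.5, 5.88 and 23.8 CPM in Sham and 20.5, 48.8 and 15.1 CPM in EDB, groups that overlap (log2 fold change 1.07 ± 0.58, adjusted p = 0.311). The difference between the 2 lists was not tested.

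Genes that phagocytes raise near damage were among the most changed. Of 18 tested members 14 rose and 0 fell (median 1.56), and the number risen ran from 11 to 14 when each library was left out in turn. Gpnmb, a transmembrane glycoprotein of lipid-laden phagocytes, was at 8.12, 9.71 and 9.49 CPM in Sham and at 147, 90.7 and 58.7 CPM in EDB, a rise of 3.44 ± 0.38 (adjusted p = 0.000786). All EDB values exceeded the highest Sham value at least 5-fold, and they were spread among themselves, EDB 1 being the highest. Trem2, the lipid-sensing partner of Tyrobp, rose by 1.59 ± 0.20 (adjusted p = 0.00114) from 17.9, 13.2 and 16.6 CPM to 55.5, 54.8 and 33.8 CPM. Tspo (2.33), the mitochondrial outer membrane protein imaged as a sign of glial activation, and Lyz2 (1.68), a lysozyme of myeloid cells, rose as well. Apoe and Lpl, 2 lipid-handling members of the same list, were not called (-0.15 and -0.10). Clec7a and Itgax, the beta-glucan receptor dectin-1 and an integrin of dendritic and activated microglial cells, were called at low levels, Clec7a at 0.250, 0.137 and 0 CPM in Sham and 3.59, 2.52 and 0.750 CPM in EDB and Itgax at 0.437, 0.205 and 0 and 2.72, 1.44 and 1.06 CPM. The Clec7a call did not hold without any single Sham library or EDB 1 or 2 (adjusted p = 0.0516 to 0.0881) or with limma-voom (adjusted p = 0.177). The Itgax call did not hold without Sham 2 or 3, EDB 1, or ICH 2 (adjusted p = 0.0531 to 0.109), with limma-voom (adjusted p = 0.0527) or in a fit of only the 6 libraries (adjusted p = 0.0707).

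Lysosomal genes rose by smaller folds from higher levels. Of 20 tested members 17 rose and 0 fell (median 0.79), although the number risen was 10 without EDB 1 and 11 without Sham 1. Ctsd, which encodes the aspartic protease cathepsin D, was at 281, 347 and 271 CPM in Sham and 941, 939.9 and 719.8 CPM in EDB and rose by 1.53 ± 0.17 (adjusted p = 0.000787). Ctsb, encoding the cysteine protease cathepsin B, was at 514, 601 and 525 CPM in Sham and 1548, 1298 and 1021 CPM in EDB and rose by 1.24 ± 0.16 (adjusted p = 0.00139). The Sham values of both genes lay close together and the EDB values stood clear of them. Ctsz (2.27), Ctsc (1.91), Ctsh (1.25), the asparaginyl endopeptidase gene Lgmn (1.38), the sterol carrier gene Npc2 (1.12) and the tetraspanin gene Cd63 (1.03) rose too. Grn, which encodes progranulin, a regulator of lysosomes, was at 73.6, 87.0 and 70.4 CPM in Sham and 486, 453 and 248 CPM in EDB, a rise of 2.36 ± 0.22 (adjusted p = 0.000467). Psap (0.74), for prosaposin, was called less firmly. The Psap call did not hold without Sham 1 or 3 or EDB 1 or 3 (adjusted p = 0.0571 to 0.0822).

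Fc receptors and the adaptors and kinases behind them formed the list with the highest share of risen members, 13 of 14 tested with 0 fallen and a median of 1.82, and the number risen stayed at 13 when each library was left out in turn. Fcgr3a was at 4.62, 3.63 and 3.47 CPM in Sham and 44.5, 53.7 and 32.8 CPM in EDB, a rise of 3.48 ± 0.21 (adjusted p = 4.76e-05). Fcer1g, the common gamma chain that carries the activating signal of these receptors, was at 24.6, 24.8 and 23.6 CPM in Sham and 98.5, 97.1 and 57.1 CPM in EDB and rose by 1.79 ± 0.20 (adjusted p = 0.000786). Sham values of Fcer1g were nearly equal, and EDB 3 was again the lowest EDB library. The high-affinity receptor gene Fcgr1a (1.90) and the inhibitory receptor gene Fcgr2b (2.18) both rose, as did the kinase genes Lyn (1.60) and Syk (1.33). Trem1 was the 1 tested member that was not called (3.64, adjusted p = 0.0765). EDB 3 was the lowest EDB library in 13 of the 13 risen genes of this list, beside 450 of all 707 risen genes. Several of these receptors are close paralogs, and the sources used here do not say how the authors' counting split reads between copies, so values of single members are uncertain, as are those of C4b, Mt2A, Oas1a and Hba-a2.

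Complement genes, of which C1q tags synapses and debris and C3 opsonises them, rose in 12 of 16 tested members with 0 fallen (median 1.42), and the number risen ran from 9 to 12 when each library was left out in turn. C1qb, a chain of the recognition molecule C1q, was at 81.0, 86.8 and 107 CPM in Sham and 483, 392 and 261 CPM in EDB, a rise of 2.05 ± 0.21 (adjusted p = 0.000566). C1qa (1.91) and C1qc (1.94), the other chains of C1q, rose by similar amounts. C1r, the protease that C1q activates, was at 25.6, 22.4 and 26.1 CPM in Sham and 61.1, 58.3 and 59.8 CPM in EDB, values that were tight within both groups, and rose by 1.27 ± 0.12 (adjusted p = 0.000467). Serping1, which encodes the inhibitor of C1 proteases, rose by 2.0 ± 0.20 (adjusted p = 0.000467). Of the receptors, C3ar1 (2.40) for the anaphylatoxin C3a and Itgb2 (1.40), the beta chain of complement receptor 3, rose. C3 itself was at 60.0, 85.7 and 59.8 CPM in Sham and 325, 257 and 149 CPM in EDB and was called (1.83 ± 0.41, adjusted p = 0.0238). The C3 call did not hold without any single Sham library or EDB 1 (adjusted p = 0.0508 to 0.114) or with no filter on low counts (adjusted p = 0.0625). C4b (-0.04) and the membrane inhibitors Cd55 (-0.85) and Cd59 (0.22) were not called.

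The NADPH oxidase of phagocytes, which makes superoxide, is built from the membrane subunits Cybb and Cyba and cytosolic subunits. Of 9 tested members 5 rose and 0 fell (median 1.52), and the number risen ran from 4 to 6 when each library was left out in turn. Ncf1, the organiser subunit p47phox, was at 11.4, 10.9 and 13.1 CPM in Sham and 71.8, 74.2 and 30.4 CPM in EDB and rose by 2.32 ± 0.30 (adjusted p = 0.00124). The GTPase gene Rac2 (2.55), Ncf4 (2.28) and Cyba (1.34) rose as well. Cybb, the catalytic subunit, was at 2.44, 0.821 and 3.04 CPM in Sham and 5.32, 8.87 and 3.88 CPM in EDB and was not called (1.52 ± 0.44, adjusted p = 0.0612).

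Genes induced by interferons rose in 19 of 24 tested members with 0 fallen (median 1.21), and the number risen ran from 13 to 19 when each library was left out in turn. Mx1, a GTPase that blocks viruses, was at 9.0, 8.41 and 5.17 CPM in Sham and 73.4, 133 and 44.6 CPM in EDB, a rise of 3.47 ± 0.40 (adjusted p = 0.000871). Zbp1 was at 0.937, 1.09 and 0.496 CPM in Sham and 19.1, 22.8 and 7.75 CPM in EDB and rose by 4.28 ± 0.43 (adjusted p = 0.000467). EDB 2 was the highest of the EDB libraries in both genes, as it was in 14 of the 19 risen members, beside 250 of all 707 risen genes. Irf7 (1.20) and Irf8 (1.67), transcription factors of the type I interferon response and of myeloid cells, Stat2 (1.05), which carries the type I signal, Oas1a (1.5), a sensor of double-stranded RNA, Rtp4 (1.44), Ifi27 (1.35), Xaf1 (1.30) and Bst2 (1.14), which tethers budding virus, also rose. Ifit3 (-0.23) and Ifit2 (0.10), close relatives that are usually strongly induced by interferon, were not called, and neither was Ifit1 (2.64, adjusted p = 0.206). Rsad2 (1.59 ± 0.38, adjusted p = 0.0289) and the guanylate-binding gene Gbp2 (1.26 ± 0.31, adjusted p = 0.0315) were called less firmly. The Rsad2 call did not hold without any single Sham library or EDB 1 or 2 (adjusted p = 0.0558 to 0.128), with no filter on low counts (adjusted p = 0.0524) or with limma-voom (adjusted p = 0.0762). The Gbp2 call did not hold without any single Sham library, EDB 2 or 3, or ICH 2 (adjusted p = 0.0517 to 0.0907), with limma-voom (adjusted p = 0.0892) or without Sham 2 and EDB 3 together (adjusted p = 0.0971).

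Class I and class II antigen presentation rose in 11 of 20 tested members with 0 fallen (median 1.40), although the number risen was 7 without Sham 1 or EDB 1. Psmb8, a subunit of the immunoproteasome that cuts peptides for class I, was at 12.5, 11.1 and 9.91 CPM in Sham and 30.7, 36.0 and 27.9 CPM in EDB, a rise of 1.5 ± 0.16 (adjusted p = 0.000566). Tap1, a chain of the transporter that loads such peptides, rose by 1.49 ± 0.21 (adjusted p = 0.0021) from 10.2, 10.7 and 7.29 CPM to 23.8, 31.8 and 23.8 CPM. RT1-DMb (1.70) and RT1-DMa (1.28), the chaperone that edits class II peptides, rose. The class II chains RT1-Ba (1.80), RT1-Db1 (1.70) and RT1-Da (1.36) and the invariant chain Cd74 (1.69) were not called. Reads of the RT1 genes can be shared between near-identical copies, so values of single RT1 genes are uncertain. The costimulatory gene Cd86 (1.83) was called. The Cd86 call did not hold without Sham 1 or 3 or EDB 1 (adjusted p = 0.0584 to 0.0782) or with limma-voom (adjusted p = 0.0794).

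Promoter sequences of 10853 of the tested genes were matched by symbol in a RefSeq table of the build GRCr8, which holds 250 bases before and 50 after each start. The letters GAAA, any 2 bases and GAAA again, the spaced repeat that interferon regulatory factors bind, occurred on either strand in 2.81% of these tested promoters and in 3.77% of all 27457 promoters of the table. They occurred in 11 of 18 promoters of the interferon response list (61.1%), 6 of 17 of the antigen presentation list (35.3%), 46 of 538 of the risen genes (8.55%) and 6 of 286 of the fallen genes (2.1%). Stretches around the repeat, on the gene's strand and 5′ to 3′, are shown for 4 risen genes and for Ifit3, which holds the repeat and was not called. Capitals mark the repeat, or its reverse complement.
Irf7 (chr1:205800043-205800132, minus strand): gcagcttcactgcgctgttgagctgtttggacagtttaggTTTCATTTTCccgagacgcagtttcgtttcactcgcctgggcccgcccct
Ifi27 (chr6:128355188-128355277, plus strand): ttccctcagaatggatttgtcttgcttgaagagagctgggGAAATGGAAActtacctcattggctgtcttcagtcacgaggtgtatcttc
Bst2 (chr16:18255049-18255138, minus strand): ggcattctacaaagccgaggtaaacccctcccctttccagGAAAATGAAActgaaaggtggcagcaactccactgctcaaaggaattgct
Tap1 (chr20:4668615-4668704, minus strand): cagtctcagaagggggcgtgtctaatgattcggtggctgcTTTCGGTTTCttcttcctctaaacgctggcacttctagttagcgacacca
Ifit3 (chr1:241527242-241527331, plus strand): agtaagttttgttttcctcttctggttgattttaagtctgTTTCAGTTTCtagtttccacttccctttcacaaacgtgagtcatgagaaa
The repeat begins 69 bases before the start of Irf7, 84 before that of Ifi27, 131 before that of Bst2, 121 before that of Tap1 and 44 before that of Ifit3. Bst2 holds a second match that overlaps the one in capitals, and Ifi27 a second one further from the start. A match describes the letters only and names no bound factor.

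Hmox1 led the genes of haem and iron handling. It was at 9.25, 9.99 and 11.5 CPM in Sham and at 239.7, 129 and 54.8 CPM in EDB, a rise of 3.78 ± 0.45 (adjusted p = 0.00113). Sham values were close together, while EDB 1 exceeded EDB 3 more than 4-fold, and ICH libraries stood at 437, 388 and 519 CPM. Of 23 tested members of the list 4 rose and 0 fell (median 0.41); the number risen was 2 without Sham 1 or 3, EDB 1, or ICH 2. Members fell in other runs, 3 without Sham 2, 1 without ICH 1 or ICH 3, and 2 with DESeq2 or without Sham 2 and EDB 3 together. Slc11a1, a metal exporter of the phagosome, was at 5.56, 6.16 and 4.88 CPM in Sham and 38.9, 43.3 and 15.1 CPM in EDB and rose by 2.55 ± 0.33 (adjusted p = 0.00129). The other two were Fth1 (0.61), the heavy chain of ferritin, and Tf (1.22), transferrin, which oligodendrocytes also express. The Fth1 call did not hold without Sham 1 or 3, EDB 1 or 3, or ICH 2 (adjusted p = 0.0581 to 0.113), in a fit of only the 6 libraries (adjusted p = 0.0583) or without Sham 2 and EDB 3 together (adjusted p = 0.0504). The Tf call did not hold without Sham 1 or 3, any single EDB library, or ICH 2 (adjusted p = 0.0561 to 0.148) or with no filter on low counts (adjusted p = 0.0576). Tfrc, the receptor that takes up transferrin, was at 51.4, 30.7 and 58.0 CPM in Sham and 17.2, 16.3 and 20.3 CPM in EDB and did not pass the test (-1.38 ± 0.40, adjusted p = 0.0604). Cd163 (0.82), the haemoglobin scavenger receptor, Hmox2 (0.41) and Blvrb (0.14) were not called. Hp, for the plasma protein that binds haemoglobin, was higher in Sham 1 and Sham 3 than in any other library, at 13.7, 0.958 and 12 CPM in Sham, 1.11, 1.80 and 1.94 CPM in EDB and 5.42, 3.40 and 3.02 CPM in ICH.

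Most antioxidant genes of the Nrf2 pathway did not pass the test. Of 25 tested members 6 rose and 1 fell (median 0.20), a called share of 28% beside 7.66% of all genes tested. The number risen was 2 or 3 without Sham 1 or 3, EDB 1 or 3, or ICH 2 or 3. The number fallen was 0 without Sham 1 or 3, any single EDB library, or ICH 2. With limma-voom 2 members rose and 0 fell. Mt2A, a metallothionein that binds zinc and copper, was at 37.9, 25.6 and 29.2 CPM in Sham and 185, 68.6 and 119 CPM in EDB, a rise of 2.01 ± 0.34 (adjusted p = 0.00539). Prdx1, a peroxiredoxin, was at 72.4, 71.1 and 65.3 CPM in Sham and 114, 108 and 131 CPM in EDB, tight in both groups, and rose by 0.76 ± 0.12 (adjusted p = 0.00427). Nfe2l2, which encodes Nrf2 itself, was at 26.5, 13.5 and 29.0 CPM in Sham and 25.4, 28.7 and 25.2 CPM in EDB, groups that overlap (0.20 ± 0.29, adjusted p = 0.736). Nqo1 (0.22), Slc7a11 (0.11), Txnrd1 (0.10) and Gclc (-0.10), usual Nrf2 targets, were not called, nor were Sod1 (0.15), Sod2 (0.22) and Cat (0.17). The glutamate-cysteine ligase modifier Gclm (0.60 ± 0.16, adjusted p = 0.0482) was called higher and Osgin1 (-1.21 ± 0.32, adjusted p = 0.0465), a gene raised by oxidative stress, lower. The Gclm call did not hold without any 1 of the 9 libraries (adjusted p = 0.0587 to 0.134), with RLE scaling (adjusted p = 0.0516), with scaling by library size only (adjusted p = 0.0563), with no filter on low counts (adjusted p = 0.069), with limma-voom (adjusted p = 0.0595), in a fit of only the 6 libraries (adjusted p = 0.1) or without Sham 2 and EDB 3 together (adjusted p = 0.14). The Osgin1 call did not hold without Sham 1 or 3, any single EDB library, or ICH 2 (adjusted p = 0.0692 to 0.142), with scaling by library size only (adjusted p = 0.0529), with no filter on low counts (adjusted p = 0.0545), with limma-voom (adjusted p = 0.0688), in a fit of only the 6 libraries (adjusted p = 0.0605) or without Sham 2 and EDB 3 together (adjusted p = 0.0754). The letters TGACNNNGC, the core of the antioxidant response element, occurred on either strand in 14.7% of tested promoters, in 9 of 22 promoters of this list (40.9%) and in 16.2% of risen genes. They are shown in capitals, as above, for the 2 risen genes whose call held in every alternative run except, for Prdx1, a minimum log2 fold change of 1.
Prdx1 (chr5:135383731-135383819, plus strand): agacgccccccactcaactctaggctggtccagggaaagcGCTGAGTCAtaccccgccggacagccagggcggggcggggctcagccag
Mt2A (chr19:10838897-10838958, minus strand): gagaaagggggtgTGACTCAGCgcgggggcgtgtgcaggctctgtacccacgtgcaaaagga
In Prdx1 the match is the reverse complement and begins 135 bases before the start, and in Mt2A it begins 237 bases before it.

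Of 18 tested genes of ferroptosis and lipid peroxide control, 1 rose and 0 fell, a called share of 5.56% beside 7.66% of all genes tested (median 0.14). Here the number risen was 0 without Sham 1 or EDB 1 and 2 without EDB 3, and the number fallen was 1 without ICH 3 and 2 without Sham 2 or ICH 1. DESeq2 called 2 risen and 2 fallen, and the median ran from 0.02 without EDB 1 to 0.21 without Sham 3. Alox5ap, the 5-lipoxygenase activating protein of myeloid cells, was at 5.06, 4.04 and 5.52 CPM in Sham and 15.4, 13.7 and 7.31 CPM in EDB (1.32 ± 0.27, adjusted p = 0.0139). The Alox5ap call did not hold without Sham 1 or EDB 1 (adjusted p = 0.0503 to 0.0638). Gpx4, the peroxidase that guards membranes against ferroptosis, differed by -0.05 and was not called. Acsl4 (-0.70), which supplies the oxidisable lipids, and Ptgs2 (-1.41) were not called either.

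Among cytokines and their receptors, those that rose were the growth factors Tgfb1 and Csf1 and 5 receptors, while Il1b and Tnf were scarce. Of 20 tested members 7 rose and 0 fell (median 0.77), and the number risen was 2 without Sham 1 and 3 without EDB 1. Csf1, the growth factor of microglia, was at 37.7, 42.4 and 28.9 CPM in Sham and 92.6, 84.3 and 76.7 CPM in EDB, a rise of 1.22 ± 0.19 (adjusted p = 0.0034). Tnfrsf1b (1.02), a receptor for tumour necrosis factor, rose too. The Tgfb1 call did not hold without Sham 1 or EDB 1 (adjusted p = 0.0567 to 0.0624). Tnf was at 0.437, 1.16 and 0.0708 CPM in Sham and 0.433, 0.659 and 0.688 CPM in EDB, and Il1b at 0.0625, 0.479 and 0.283 CPM and 0.742, 0.120 and 0.625 CPM. At these levels the groups of both genes overlapped and neither was called (adjusted p = 0.963 and 0.634).

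Among 14 tested chemokines and receptors 4 rose and 1 fell (median 1.41); the number risen was 2 without Sham 1 or 3, EDB 1 or 2, or ICH 2. Cxcl16, which also serves as a scavenger receptor, was at 6.87, 6.29 and 4.96 CPM in Sham and 19.8, 20.9 and 16.1 CPM in EDB and rose by 1.64 ± 0.18 (adjusted p = 0.000728). Cmklr1 (1.42), the chemerin receptor, rose, and Cxcl12, which holds progenitors and lymphocytes in place, fell from 178, 165 and 241 CPM to 118, 109 and 110.1 CPM, a log2 fold change of -0.80 ± 0.16 (adjusted p = 0.012). Ccl2, which draws in monocytes, had 2 counts in all Sham libraries together and 50 in the EDB libraries, a ratio of 22.9 (95% counting interval 6.02 to 194), and was called at a fitted 4.30 ± 1.10. The Ccl2 call did not hold without any single Sham library, EDB 1 or 2, or ICH 2 (adjusted p = 0.0546 to 0.133) or with limma-voom (adjusted p = 0.0963). Without Sham 1, whose 2 counts were the only ones in Sham, the fitted value was 7.07.

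Sensors of danger and pyroptosis rose in part. Of 16 tested members 7 rose and 0 fell (median 0.95), and the number risen was 3 without EDB 1 and 4 without Sham 1. Nlrp3, the inflammasome sensor, was at 5.19, 4.51 and 5.52 CPM in Sham and 17.9, 16.8 and 12 CPM in EDB, a rise of 1.62 ± 0.21 (adjusted p = 0.00129). Gsdmd, the pore-forming gasdermin, was at 9.19, 8.0 and 8.21 CPM in Sham and 23.1, 17.7 and 18.6 CPM in EDB, a rise of 1.23 ± 0.16 (adjusted p = 0.00126). In both genes the values within each group were close together and the groups stood apart. Casp1 (0.68) and Il18 (1.35) were not called. The purine receptor gene P2rx7 (0.74) rose. Of 23 Toll-like receptor and NF-kB genes 6 rose and 0 fell (median 0.55), among them Tlr2 (1.60) and the co-receptor Cd14 (2.43), and the number risen was 2 without Sham 1 or 3, EDB 1, or ICH 2 and 3 without EDB 2. Rela (0.36), Nfkb1 (0.38) and Nfkbia (-0.16), the NF-kB subunits p65 and p50 and their inhibitor, were not called.

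Cell death genes were mixed. Of 22 tested members 5 rose and 1 fell (median 0.34), and the number risen was 2 without Sham 1 or EDB 1 and 3 without Sham 3, while the number fallen was 3 without Sham 2. Cdkn1a, the cell cycle inhibitor p21, was at 13, 17.2 and 16.1 CPM in Sham and 46.0, 33.9 and 50.5 CPM in EDB, a rise of 1.49 ± 0.20 (adjusted p = 0.00143). Bid (1.22), which links death receptors to mitochondria, rose. Casp9, the initiator caspase of the mitochondrial pathway, fell from 109.6, 130.4 and 112 CPM to 79.0, 67.0 and 66.7 CPM, a log2 fold change of -0.73 ± 0.14 (adjusted p = 0.00972), and Bax (-0.05) was not called. Ripk3 (2.13) and Casp8 (1.52), the kinase of necroptosis and the caspase that restrains it, were called at low levels. The Casp9 call did not hold without Sham 2 and EDB 3 together (adjusted p = 0.0568). The Ripk3 call did not hold without Sham 1 or 3 or EDB 1 (adjusted p = 0.0648 to 0.0726) or with limma-voom (adjusted p = 0.0745). The Casp8 call did not hold without Sham 1 or 2, EDB 1 or 2, or ICH 2 (adjusted p = 0.06 to 0.131), with limma-voom (adjusted p = 0.0714) or in a fit of only the 6 libraries (adjusted p = 0.0694).

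Among markers of lymphocytes and neutrophils, the genes called were Cd8a, Cd8b and Csf3r. Of 6 tested T, B and natural killer cell genes, the 2 that rose were Cd8a and Cd8b, with 4 and 3 counts in the Sham libraries together and 97 and 54 in the EDB libraries, ratios of 22.2 (95% counting interval 8.40 to 83.2) and 16.5 (5.35 to 82.5). The Cd8a call did not hold without Sham 3 or EDB 1 (adjusted p = 0.0546 to 0.0636), with limma-voom (adjusted p = 0.146) or without Sham 2 and EDB 3 together (adjusted p = 0.0674). The Cd8b call did not hold without Sham 1 or 3, EDB 1 or 3, or ICH 2 (adjusted p = 0.0547 to 0.129), with limma-voom (adjusted p = 0.119) or without Sham 2 and EDB 3 together (adjusted p = 0.0654). Cd3e was not called (0.04, adjusted p = 0.981), and Cd3d and Cd3g, which encode other chains of the T cell receptor complex, had between 0 and 3 counts in each of the 6 libraries. Cd8 chains are also expressed by some rat macrophages. Of 7 tested neutrophil genes 1 rose, the growth factor receptor gene Csf3r (1.92 ± 0.24, adjusted p = 0.00113), which microglia also express, while S100a8 was at 0.187, 0.342 and 0.142 CPM in Sham and 1.30, 0.300 and 0.563 CPM in EDB and the protease gene Mmp9 at 0.0625, 0.889 and 0.637 and 1.61, 0.300 and 1.75 CPM, neither called. Of 14 monocyte and border macrophage genes 5 rose (median 1.17), and the number risen ran from 4 to 5 when each library was left out in turn. Plac8 stood at 0.812, 0.479 and 1.20 CPM in Sham and 15.3, 23.5 and 10.5 CPM in EDB, a rise of 4.30 ± 0.54 (adjusted p = 0.00115), S100a4 at 2.87, 1.57 and 0.779 and 12.9, 11.9 and 36.2 CPM, with EDB 3 the highest. Pf4 (2.19) and Cd163, genes of border macrophages, were not called, and Mrc1 differed by 0.00.

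Gfap marked the astrocytes. It was at 544, 506 and 403 CPM in Sham and at 3129, 2804 and 3769.5 CPM in EDB, a rise of 2.74 ± 0.17 (adjusted p = 4.76e-05), with ICH libraries at 5044, 5165 and 4544 CPM. The groups were far apart, and among the EDB libraries Gfap was highest in EDB 3. Of 24 reactive astrocyte genes 6 rose and 0 fell (median 0.64), but the number risen was 2 or 3 without Sham 1, Sham 2, Sham 3, EDB 1 or EDB 3, and 1 fell without Sham 2. With limma-voom the number risen was 2. Timp1, an inhibitor of metalloproteinases, was at 1.94, 1.85 and 1.35 CPM in Sham and 22.1, 10.4 and 8.75 CPM in EDB and rose by 3.0 ± 0.36 (adjusted p = 0.000991). Lcn2, an iron-siderophore binding lipocalin, was at 2.25, 4.04 and 2.48 CPM in Sham and 149.7, 15.8 and 5.94 CPM in EDB, with EDB 1 far above the rest, and was not called (4.29 ± 1.22, adjusted p = 0.0784). Vim, encoding vimentin, was at 128, 92.6 and 106 CPM in Sham and 246, 122 and 367 CPM in EDB and was called (1.17). Hspb1 (1.24), a small heat shock protein, was called too. The Vim call did not hold without any single Sham library, EDB 1 or 3, or any single ICH library (adjusted p = 0.0575 to 0.153), with no filter on low counts (adjusted p = 0.0708), with limma-voom (adjusted p = 0.0795), in a fit of only the 6 libraries (adjusted p = 0.0833) or without Sham 2 and EDB 3 together (adjusted p = 0.185). The Hspb1 call did not hold without Sham 1 or 3 or EDB 1 or 3 (adjusted p = 0.0615 to 0.0811), with limma-voom (adjusted p = 0.0826), in a fit of only the 6 libraries (adjusted p = 0.0622) or without Sham 2 and EDB 3 together (adjusted p = 0.0723). The fold change of Vim was 0.76 without EDB 3. Cd44 (0.26), Nes (-0.30) and Serpina3n (-3.11) were not called.

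Most genes of astrocyte homeostasis were not called: of 19 tested members 0 rose and 2 fell (10.5%, beside 2.71% of all genes tested; median -0.18), and the number fallen was 0 without Sham 1 or 3 or EDB 1 and 1 without EDB 3 or any single ICH library. Aqp4, the water channel, was at 271, 86.3 and 333 CPM in Sham and 161, 237 and 193 CPM in EDB; Sham 2 was the lowest and the groups overlapped (-0.22 ± 0.43, adjusted p = 0.804). The members that fell were the glutamate transporter gene Slc1a2, from 294, 205 and 361 CPM to 160.1, 203 and 151 CPM (-0.74 ± 0.19), and the glypican gene Gpc5 (-0.69 ± 0.14). The Slc1a2 call did not hold without Sham 1 or 3, EDB 1 or 3, or any single ICH library (adjusted p = 0.0527 to 0.147), with scaling by library size only (adjusted p = 0.0579), with limma-voom (adjusted p = 0.0518) or in a fit of only the 6 libraries (adjusted p = 0.0834). The Gpc5 call did not hold without Sham 1 or 3 or EDB 1 (adjusted p = 0.0588 to 0.0779). Slc1a3 (-0.25), Glul (0.37), Kcnj10 (0.14) and Gja1 (0.11) were not called.

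Oligodendrocyte and myelin genes lay on the higher side in EDB. All 22 tested members had a log2 fold change above 0 (median 0.78), 7 rose and 0 fell. The count turned on single libraries: the number risen was 1 without Sham 1 or 3, 2 without EDB 1 or 3, 3 without EDB 2 or ICH 2 and 11 without Sham 2. Aspa, the aspartoacylase of oligodendrocytes, was at 17.1, 16.2 and 16.5 CPM in Sham and 33.5, 37.8 and 28.8 CPM in EDB, a rise of 1.01 ± 0.18 (adjusted p = 0.00795), and its call held in every alternative run. Mbp, which encodes myelin basic protein, was at 13886, 18218 and 10161 CPM in Sham and 24257, 22016 and 29473 CPM in EDB (0.84 ± 0.27, adjusted p = 0.0858, not called). The transcription factor genes Olig1 (0.78) and Sox10 (0.85) were called. The Olig1 call did not hold without Sham 1 or 3 or EDB 1 (adjusted p = 0.0514 to 0.0723). The Sox10 call did not hold without Sham 1 or 3, any single EDB library, or ICH 2 (adjusted p = 0.0562 to 0.113). Summed levels of the list were 24982, 30160.3 and 18718 CPM in Sham, 41916, 41885 and 47414 CPM in EDB and 36275, 31872 and 18781 CPM in ICH, so that Sham 3 and ICH 3 were the lowest and the ICH libraries overlapped the Sham libraries.

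**Figure D3:**
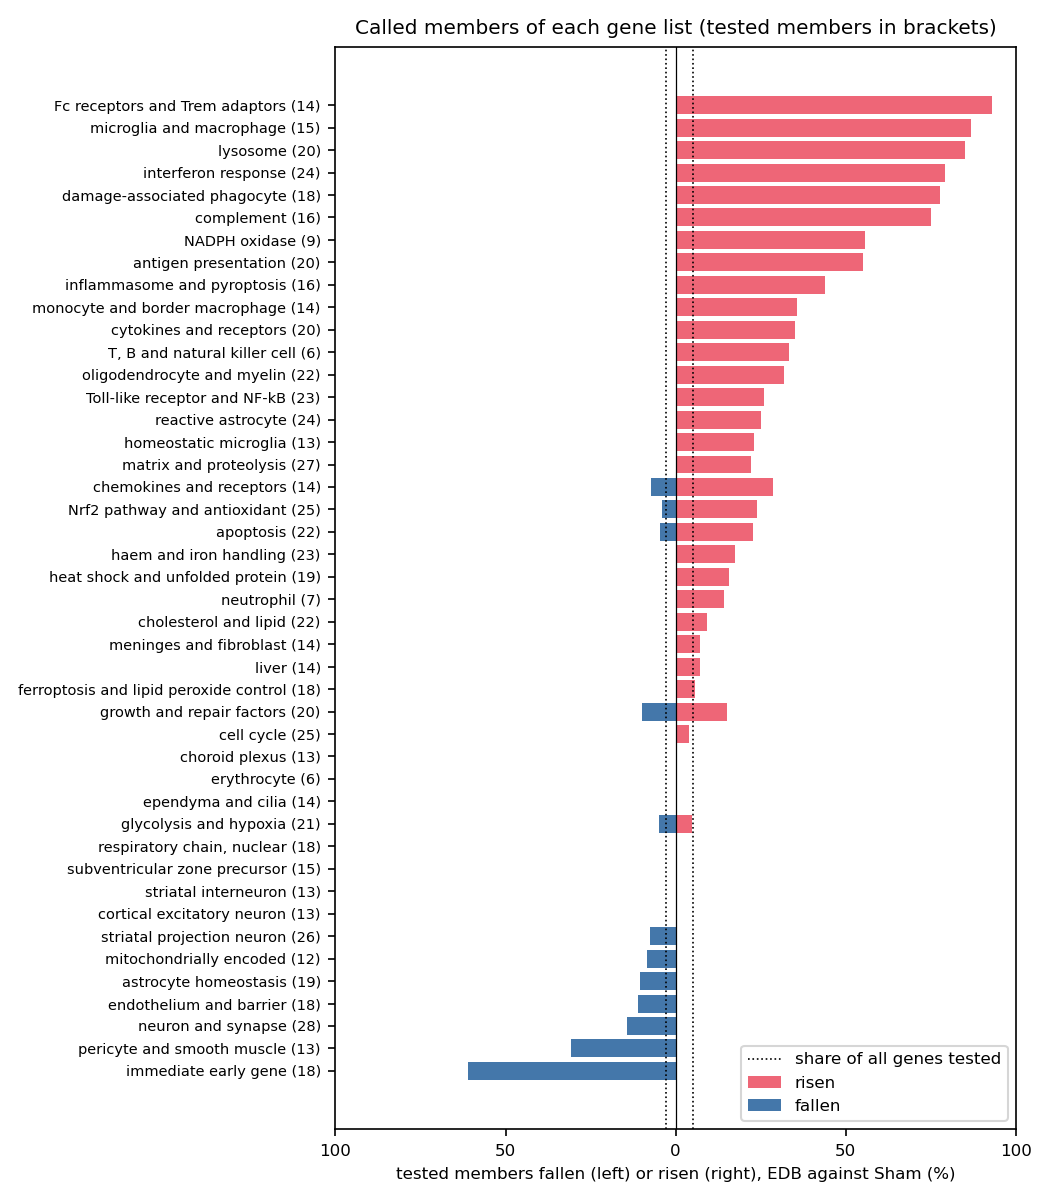
Share of the tested members of each of 44 gene lists that fell (blue, to the left) or rose (red, to the right) in EDB against Sham, in percent, with the number of tested members in brackets. Dotted lines mark the share among all genes tested, 2.71% fallen and 4.95% risen. Fc receptor, microglial, lysosomal and interferon lists reach furthest to the right, and the immediate early genes, 11 of 18 fallen, furthest to the left.

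Matrix genes rose in 6 of 27 tested members with 0 fallen (median 0.35), and the number risen ran from 5 to 6 when each library was left out in turn. With limma-voom 3 of them rose. The median was -0.06 without EDB 1 and 0.65 without EDB 3. Those that rose were proteases, a protease inhibitor and Spp1, and no collagen or laminin was called: Col1a1 differed by 0.51, Col3a1 by 0.35 and Col4a1 by 0.03. Mmp2, a gelatinase, was at 8.37, 10.5 and 9.34 CPM in Sham and 25.7, 32.6 and 75.0 CPM in EDB, a rise of 2.24 ± 0.35 (adjusted p = 0.00332), EDB 3 being the highest. Mmp19 (1.85) and Plau (2.80), which encodes urokinase, rose. The Plau call did not hold with limma-voom (adjusted p = 0.0988). Of 19 chaperone genes 3 rose and 0 fell (median 0.22); the number risen ran from 2 to 4 when each library was left out in turn, and 1 fell without Sham 1. Cryab, a small heat shock protein of astrocytes and oligodendrocytes, was at 37.1, 51.0 and 40.6 CPM in Sham, 99.6, 94.7 and 105 CPM in EDB and 65.4, 52.8 and 33.3 CPM in ICH. Its 3 EDB values were nearly equal and above all 6 others, with a rise of 1.22 ± 0.22 against Sham (adjusted p = 0.00666) and a difference of 0.98 ± 0.21 from ICH that did not pass the test (adjusted p = 0.066).

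Of the 10 largest falls by the naming rule, 8 were immediate early genes. Of 18 tested members 11 fell and 0 rose, all 18 had a log2 fold change below 0, and the median was -2.03; the number fallen ran from 8 to 11 when each library was left out in turn. Fos, a subunit of the AP-1 transcription factor, was at 49.7, 48.5 and 45.9 CPM in Sham and 11.9, 9.35 and 8.06 CPM in EDB and fell, with a log2 fold change of -2.30 ± 0.32 (adjusted p = 0.00199). The 3 Sham values were nearly equal, the 3 EDB values were close together, and the ICH values spread over 23.7, 18.8 and 50.4 CPM. Arc, whose product reshapes synapses after activity, was at 361, 332 and 127 CPM in Sham and 33.7, 62.0 and 51.2 CPM in EDB (-2.48 ± 0.36, adjusted p = 0.00222). Sham 3 was the lowest Sham library for Arc and still stood above the highest EDB library.

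Nr4a1, an orphan nuclear receptor, was at 184, 208 and 89.2 CPM in Sham and 26.0, 33.9 and 35.1 CPM in EDB (-2.34 ± 0.27, adjusted p = 0.000825). Egr1, a zinc finger factor, was at 330.0, 447 and 205 CPM in Sham and 118, 149 and 134 CPM in EDB (-1.29 ± 0.23, adjusted p = 0.00666). Nr4a3 (-2.56), Fosb (-2.12) and Fosl2 (-2.03) fell as firmly. Egr2 (-3.16), the largest fall by the naming rule, and Egr4 (-2.03) fell with Sham 3 far below the other Sham libraries: Egr2 was at 45.2, 42.4 and 8.71 CPM in Sham and 1.86, 4.68 and 4.19 CPM in EDB. The Egr2 call did not hold with limma-voom (adjusted p = 0.0517). The Egr4 call did not hold without EDB 1 (adjusted p = 0.0546) or without Sham 2 and EDB 3 together (adjusted p = 0.0799). Npas4, which neurons induce with calcium entry, was at 55.4, 15.3 and 2.97 CPM in Sham and 0.804, 4.68 and 0.375 CPM in EDB, and with that spread it was not called (-3.64 ± 1.06, adjusted p = 0.067). Jun (-0.20), Jund (-0.11) and Fosl1 (-0.18) were not called. In ICH against Sham, which shares the Sham libraries, the log2 fold changes were -2.10 for Nr4a1, -1.28 for Egr1, -2.38 for Arc and -0.63 for Fos.

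The cAMP response element TGACGTCA, through which Creb drives activity-dependent genes, occurred in 3 of 13 promoters of the immediate early gene list (23.1%), in 3.06% of tested promoters, in 2.1% of fallen genes and in 0.372% of risen genes. Among the fallen members it was found in Btg2, an antiproliferative gene that was at 22.9, 37.7 and 59.4 CPM in Sham and 15, 10.3 and 20.8 CPM in EDB (-1.38 ± 0.33, adjusted p = 0.0294), beginning 201 bases before the start. The Btg2 call did not hold without Sham 3 or EDB 1 or 2 (adjusted p = 0.0816 to 0.116) or in a fit of only the 6 libraries (adjusted p = 0.0635). The other list members with the site, Jund (-0.11, adjusted p = 0.705) and Ier2 (-0.81, adjusted p = 0.102), were not called. The stretch in Btg2 is shown because it is the 1 such site among the fallen members with a promoter in the table, 7 of 11.
Btg2 (chr13:48087844-48087931, minus strand): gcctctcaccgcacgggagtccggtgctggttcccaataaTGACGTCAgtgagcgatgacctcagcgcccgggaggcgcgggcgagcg
Beside the immediate early genes, Apold1, an early response gene of endothelium, was among the 10 largest falls, at 33.6, 96.8 and 141 CPM in Sham and 25.1, 12.8 and 20.2 CPM in EDB (-2.22 ± 0.47, adjusted p = 0.0173). Fam227a, at 9.25, 2.87 and 8.71 CPM in Sham and 0.928, 2.28 and 2.19 CPM in EDB (-1.94 ± 0.51), was the other. The Apold1 call did not hold without Sham 2 or 3 (adjusted p = 0.0506 to 0.0667) or without Sham 2 and EDB 3 together (adjusted p = 0.105). The Fam227a call did not hold without Sham 1 or 3, any single EDB library, or ICH 1 or 2 (adjusted p = 0.0517 to 0.141), with limma-voom (adjusted p = 0.0815) or in a fit of only the 6 libraries (adjusted p = 0.0676).

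**Figure D4:**
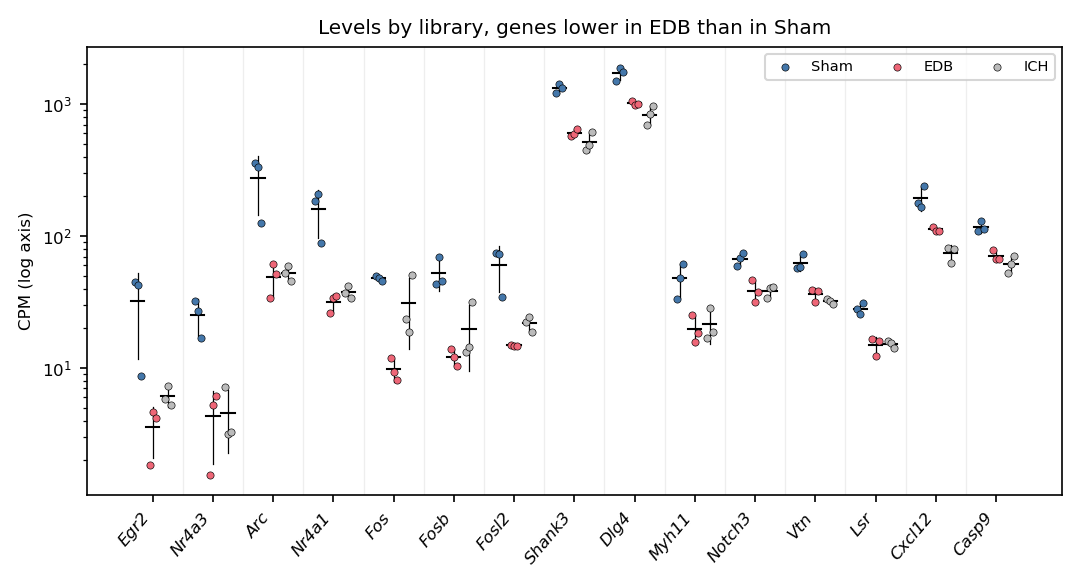
Level of 15 genes called lower in EDB than in Sham, in CPM on a log axis, with libraries 1 to 3 of Sham (blue), EDB (red) and ICH (grey) as points, group means as horizontal bars and ± 1 SD as vertical lines. For Egr2 and Arc the third Sham library lies well below the first and second, and for Shank3 and Dlg4 the points of each group lie close together.

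Among neuronal genes the firmest calls were those of the synaptic scaffold genes Shank3 and Dlg4, while the scaffold genes Shank1 and Homer1 were not called. Of 28 tested neuron and synapse genes 0 rose and 4 fell (14.3%, beside 2.71% of all genes tested), and the number fallen was 2 without Sham 3 or EDB 3. The median of the list was -0.23, and -0.04 without Sham 2; without Sham 2 and EDB 3 together 2 members rose and 3 fell. Shank3, a scaffold of the excitatory postsynapse, was at 1224, 1428 and 1326 CPM in Sham and 579, 599 and 647 CPM in EDB, with ICH at 452, 488 and 611 CPM. The groups were tight and far apart, and the log2 fold change was -1.12 ± 0.14 (adjusted p = 0.00115). Dlg4, which encodes the scaffold PSD-95, fell from 1508, 1884 and 1743 CPM to 1058, 986 and 1010.2 CPM, a log2 fold change of -0.75 ± 0.15 (adjusted p = 0.0115). Camk2a (-0.74), the calcium-dependent kinase of the same structure, and the syntaxin gene Stx1a (-0.60) were called too. The Camk2a call did not hold without Sham 3 or EDB 2 or 3 (adjusted p = 0.0832 to 0.101) or without Sham 2 and EDB 3 together (adjusted p = 0.0997). The Stx1a call did not hold without Sham 3 or any single EDB library (adjusted p = 0.0588 to 0.0881) or without Sham 2 and EDB 3 together (adjusted p = 0.0777). Snap25 (-0.26), Syt1 (-0.24), Rbfox3 (-0.24) and the neurofilament gene Nefl (0.22) were not called, and Map2 was at 142, 89.4 and 214 CPM in Sham and 81.9, 91.5 and 81.6 CPM in EDB (-0.80 ± 0.26, adjusted p = 0.0923).

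Of 26 genes of striatal projection neurons 0 rose and 2 fell (median -0.30). Their called share was 7.69%, while among all genes tested 7.66% were called and 2.71% fell. Drd1 and Drd2, the dopamine receptors of the direct and the indirect pathway, were at 294, 395 and 249 CPM and 333, 536 and 371 CPM in Sham and at 280.2, 397 and 294 CPM and 349, 353 and 307 CPM in EDB. Groups of both genes overlapped, with log2 fold changes of 0.05 ± 0.19 (adjusted p = 0.905) and -0.30 ± 0.17 (adjusted p = 0.345), and Ppp1r1b differed by -0.18 ± 0.23 (adjusted p = 0.703). The members that fell were Rasd2 (-0.64), a striatal GTPase, and Ptpn5 (-0.68), a striatum-enriched phosphatase. The Rasd2 call did not hold without Sham 2 or 3, any single EDB library, or ICH 2 or 3 (adjusted p = 0.051 to 0.135), in a fit of only the 6 libraries (adjusted p = 0.0704) or without Sham 2 and EDB 3 together (adjusted p = 0.141). The Ptpn5 call did not hold without any single Sham library, any single EDB library, or ICH 2 (adjusted p = 0.054 to 0.146) or without Sham 2 and EDB 3 together (adjusted p = 0.121). Penk (0.15), Adora2a (-0.27) and Pde10a (-0.32) were not called. None of 13 tested interneuron genes was called by edgeR or limma-voom (median -0.28), DESeq2 called 1 lower, and at an unadjusted p under 0.05 there were 3 lower and 1 higher. Leaving out Sham 2 gave 1 fallen member. In projection neurons, the number fallen was 0 without Sham 2 or 3, EDB 1 or 3, or ICH 2, and 1 without Sham 1, EDB 2 or ICH 3, and 1 member rose without Sham 2 or ICH 1.

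Genes of the vessel wall fell in part. Of 13 pericyte and smooth muscle genes 4 fell and 0 rose (median -0.55), a called share of 30.8%. Among all genes tested 7.66% were called and 2.71% fell. However, the number fallen was 1 without Sham 3 and 2 without EDB 2 or EDB 3, and 1 member rose without EDB 2. Vtn, which encodes vitronectin and marks pericytes, was at 57.1, 58.8 and 72.9 CPM in Sham and 39.0, 31.7 and 38.3 CPM in EDB (-0.79 ± 0.14, adjusted p = 0.00595). Myh11, the myosin of smooth muscle, was at 33.4, 48.4 and 61.4 CPM in Sham and 25.2, 15.6 and 18.6 CPM in EDB (-1.27 ± 0.27, adjusted p = 0.0171), and Notch3 (-0.80) and Pdgfrb (-0.53), receptors of mural cells, were called too. The Myh11 call did not hold without Sham 3 or EDB 2 or 3 (adjusted p = 0.0537 to 0.0728) or without Sham 2 and EDB 3 together (adjusted p = 0.0745). The Notch3 call did not hold without Sham 3 (adjusted p = 0.0509) or without Sham 2 and EDB 3 together (adjusted p = 0.0515). The Pdgfrb call did not hold without Sham 1 or 3, EDB 2 or 3, or ICH 2 or 3 (adjusted p = 0.0561 to 0.11), in a fit of only the 6 libraries (adjusted p = 0.0789) or without Sham 2 and EDB 3 together (adjusted p = 0.0933). Tagln, another smooth muscle gene, was at 45.4, 66.9 and 55.8 CPM in Sham and 115, 51.9 and 269 CPM in EDB and was not called. Of 18 endothelial and barrier genes 2 fell and 0 rose (median -0.30), a called share of 11.1% beside the same 7.66% of all genes tested. There the number fallen was 1 without Sham 3, EDB 2 or 3, or ICH 2 or 3, while the number risen was 1 without ICH 3 and 2 without Sham 2. Without Sham 2 and EDB 3 together 2 members rose, and DESeq2 called 2 risen and 5 fallen. Lsr, a protein of junctions where 3 cells meet, was at 27.9, 25.9 and 31.0 CPM in Sham and 16.5, 12.3 and 16.0 CPM in EDB (-0.92 ± 0.16, adjusted p = 0.00543). Flt1 (-0.73), a receptor for vascular endothelial growth factor, was the other member, and its fold change was -0.45 without Sham 3. The Flt1 call did not hold without Sham 3, any single EDB library, or ICH 2 or 3 (adjusted p = 0.0514 to 0.127) or in a fit of only the 6 libraries (adjusted p = 0.0761). Pecam1 (-0.22), Cdh5 (-0.31), Vwf (-0.06) and Tjp1 (-0.12) were not called.

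Growth and repair genes were called in both directions: 3 of 20 rose, among them Grn, and 2 fell, a called share of 25% beside 7.66% of all genes tested. However, the number risen was 1 without Sham 1 or EDB 1, and the number fallen was 0 without Sham 3 or EDB 1 and 1 without Sham 1 or EDB 2 or 3. The members that fell were Vegfa, from 111, 93.8 and 154 CPM to 58.0, 72.8 and 75.6 CPM (-0.80 ± 0.20), and the growth cone gene Gap43 (-0.69). The Vegfa call did not hold without Sham 1 or 3 or any single EDB library (adjusted p = 0.0585 to 0.137) or in a fit of only the 6 libraries (adjusted p = 0.0551). The Gap43 call did not hold without Sham 1 or 3 or EDB 1 (adjusted p = 0.0713 to 0.0811) or in a fit of only the 6 libraries (adjusted p = 0.0518). Of 21 glycolysis and hypoxia genes 1 rose, Hk2 (1.32 ± 0.22, adjusted p = 0.00444), an inducible hexokinase, and 1 fell, Vegfa, while 3 rose without EDB 3. This list had a called share of 9.52%, beside 7.66% of all genes tested. Of 22 cholesterol and lipid genes 2 rose, Soat1 (0.76 ± 0.14, adjusted p = 0.00884), which esterifies cholesterol, and Plin2 (1.17 ± 0.27, adjusted p = 0.0238), which coats lipid droplets, and no gene of cholesterol synthesis was called. The Plin2 call did not hold without any single Sham library or EDB 1 (adjusted p = 0.055 to 0.0963), with limma-voom (adjusted p = 0.0668) or without Sham 2 and EDB 3 together (adjusted p = 0.067). For cholesterol and lipid genes the called share was 9.09%, beside the same 7.66%, and the number risen was 1 without Sham 1 or 3 or EDB 1. None of 18 nuclear genes of the respiratory chain was called by edgeR, DESeq2 or limma-voom, with 0 at an unadjusted p under 0.05 (median 0.06, and -0.01 without Sham 3), and their log2 fold changes lay between -0.21 for Cox6a1 and 0.19 for Ndufs1. Of 25 cell cycle genes 1 rose, the mitotic kinase gene Aurka (0.65 ± 0.17, adjusted p = 0.0397; median of the list 0.37). The Aurka call did not hold without Sham 1 or 3, any single EDB library, or any single ICH library (adjusted p = 0.0507 to 0.148), with no filter on low counts (adjusted p = 0.0548), with limma-voom (adjusted p = 0.0691) or in a fit of only the 6 libraries (adjusted p = 0.106). The cell cycle list had a called share of 4%, beside 7.66% of all genes tested. Without Sham 1 there were 3 risen cell cycle genes, and the median ran from 0.13 without Sham 2 to 0.71 without Sham 1.

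Values against ICH place the EDB level between those of Sham and ICH for most risen genes, a description only, since EDB against Sham and ICH against Sham share the Sham libraries. Of 14274 genes 2670 (18.7%) were called between ICH and Sham, 1628 higher (11.4%) and 1042 lower (7.3%) in ICH. Between EDB and ICH 98 (0.687%) were called, 8 higher (0.056%) and 90 lower (0.631%) in EDB. The mean EDB level was below the ICH level in 562 of the 707 risen genes, with a median EDB against ICH difference of -0.42 on the log2 scale, and in 165 of the 387 fallen genes, with a median of 0.05. Over all 14274 genes tested, EDB was above ICH in 6596, with a median of -0.03. Of the risen genes 43 were also called lower than in ICH, 1 was called higher and 663 were not called. The number of calls against ICH turned on every library and was 41, 321 and 37 without Sham 1, 2 and 3, 24, 8 and 32 without ICH 1, 2 and 3, and 44, 9 and 10 without EDB 1, 2 and 3. For a gene not called against ICH, the test does not show that EDB and ICH levels were alike.

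The 5 genes with the largest difference from ICH by the naming rule were Gpnmb (-2.58 ± 0.35), Lgals3 (-2.44 ± 0.42), Siglec1 (-2.30 ± 0.41), Hspb1 (-1.85 ± 0.27) and Socs3 (-1.84 ± 0.27). Gpnmb stood at 892, 470.3 and 401 CPM in the ICH libraries, above each EDB library. Its call against ICH was lost without EDB 2 or 3 or ICH 2, with adjusted p up to 0.0745. That of Hspb1 was lost without EDB 1 or any single ICH library, with adjusted p up to 0.088. Those of Lgals3 and Socs3 were lost without 7 and 4 of the 9 libraries in turn, and that of Siglec1 without 8. Siglec1, a sialic acid receptor of macrophages, was at 1.25, 2.46 and 2.69 CPM in Sham, 21.3, 18.9 and 5.75 CPM in EDB and 91.9, 80.2 and 54.7 CPM in ICH. Socs3, which limits cytokine signalling, was at 2.81, 2.39 and 2.76, 8.04, 4.68 and 3.88 and 22.7, 18.8 and 17.9 CPM, and its value against Sham (1.06) was 0.69 without EDB 1. The Siglec1 call did not hold with limma-voom (adjusted p = 0.052). The Socs3 call did not hold without any single Sham library, EDB 1 or 2, or any single ICH library (adjusted p = 0.0564 to 0.155), with limma-voom (adjusted p = 0.125) or in a fit of only the 6 libraries (adjusted p = 0.119). Of 46 genes called in both comparisons, 44 lost the call against ICH without at least 1 library. The 2 that kept it, named for that reason, were Cebpd, an inflammatory transcription factor gene, and Tuba1c, an alpha-tubulin gene. Cebpd was at 14.1, 11.9 and 12 CPM in Sham, 25.9, 23.3 and 22.4 CPM in EDB and 60.1, 53.5 and 59.6 CPM in ICH, 3 tight groups in that order, with 0.92 ± 0.13 against Sham (adjusted p = 0.00227) and -1.27 ± 0.13 against ICH (adjusted p = 0.00384). Tuba1c was at 10.9, 9.17 and 10.1 CPM in Sham, 23.3, 17.4 and 17.9 CPM in EDB and 60.9, 50.3 and 48.0 CPM in ICH, with 0.96 ± 0.17 against Sham and -1.44 ± 0.16 against ICH.

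Of the genes called in both comparisons, 2 had EDB on the same side of Sham and of ICH. Steap2, a metalloreductase that reduces iron and copper, was at 5.94, 6.22 and 7.79 CPM in Sham, 19.9, 14.6 and 19.1 CPM in EDB and 9.50, 7.61 and 9.07 CPM in ICH. It was the single risen gene called higher than in ICH, with 1.42 ± 0.20 against Sham (adjusted p = 0.00204) and 1.03 ± 0.20 against ICH (adjusted p = 0.0485), the latter lost without Sham 1 or 3, any single EDB library, or any single ICH library, with adjusted p up to 0.196. Fos was the single fallen gene called lower than in ICH (-1.67 ± 0.32, adjusted p = 0.0475), and that call was lost without Sham 1 or 3, any single EDB library, or any single ICH library, with adjusted p up to 0.124. Tcte1, which fell against Sham (-0.42 ± 0.11) and was called higher than in ICH (0.58 ± 0.11), lay between, at 110.4, 127 and 115 CPM in Sham, 90.6, 92.0 and 82.1 CPM in EDB and 63.6, 56.4 and 56.4 CPM in ICH. The Tcte1 call did not hold without any single Sham library, any single EDB library, or ICH 2 or 3 (adjusted p = 0.0663 to 0.156), with no filter on low counts (adjusted p = 0.0662), with limma-voom (adjusted p = 0.0517), in a fit of only the 6 libraries (adjusted p = 0.0877) or without Sham 2 and EDB 3 together (adjusted p = 0.202). Its call against ICH was lost without Sham 1 or 3, any single EDB library, or any single ICH library, with adjusted p up to 0.198. These 3 genes were picked by their calls in both comparisons.

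Summed levels of choroid plexus, liver and meningeal lists were higher in each EDB library than in each Sham library. The choroid plexus sum was 225, 246 and 234 CPM in Sham and 375, 379 and 9138 CPM in EDB, and that of the liver list, which also holds Ttr and Tf, was 1376, 1729 and 1051 CPM and 2565, 2288 and 10061 CPM. Most tested liver genes went the other way, with a median log2 fold change of -2.47 and 2 of 14 above 0. The meningeal and fibroblast sum was 544, 630.2 and 474 CPM in Sham and 1667, 691 and 1499.5 CPM in EDB. Choroid plexus genes were by far the highest in EDB 3, with Ttr, which encodes transthyretin, at 20.6, 52.5 and 35.8 CPM in Sham and 52.0, 28.9 and 6684 CPM in EDB, and none of 13 tested members was called by edgeR or limma-voom. All 13 were higher at an unadjusted p under 0.05, DESeq2 called 4, and edgeR called 1 without EDB 1 and 6 without EDB 2. The median of the list was 3.71, and 0.72 without EDB 3. Of 14 liver genes Alb, which encodes albumin, was at 166, 3.21 and 165 CPM in Sham and 2.47, 18 and 25.8 CPM in EDB, high in Sham 1 and Sham 3; 1 member rose, Tf. None of the liver genes fell by edgeR or limma-voom, though 7 were lower at an unadjusted p under 0.05, 2 by DESeq2 and 6 by edgeR without Sham 2. Without Sham 2 and EDB 3 together edgeR called 8 liver genes lower. Alpha-globin Hba-a2 was at 539, 510.4 and 689 CPM in Sham and 1248, 255 and 1192 CPM in EDB, with EDB 2 the lowest and the groups overlapping, and none of 6 erythrocyte genes was called by any of the 3 tools or had an unadjusted p under 0.05. Mt-nd1, a subunit of complex I, was at 6949, 7469 and 12281 CPM in Sham and 4116, 3944 and 5166 CPM in EDB and was the 1 of 12 mitochondrially encoded genes that fell (-1.01 ± 0.27, adjusted p = 0.0456). The Mt-nd1 call did not hold without Sham 1 or 3, any single EDB library, or ICH 3 (adjusted p = 0.0507 to 0.17) or in a fit of only the 6 libraries (adjusted p = 0.05). The number fallen was 3 without Sham 2 or ICH 2 and 4 with DESeq2, and the median of the list was -0.89, or -0.45 without Sham 3. Of 14 meningeal and fibroblast genes 1 rose, Ptgds, a prostaglandin synthase also made by oligodendrocytes, at 243, 449 and 240.2 CPM in Sham and 1335, 473 and 869 CPM in EDB. The Ptgds call did not hold without Sham 1 or 3, EDB 1 or 3, or ICH 2 (adjusted p = 0.0579 to 0.147), with no filter on low counts (adjusted p = 0.0677) or in a fit of only the 6 libraries (adjusted p = 0.0534). Without EDB 2 there were 2 risen members. Called shares of the liver, meningeal and mitochondrially encoded lists were 7.14%, 7.14% and 8.33%, beside 7.66% of all genes tested. None of 14 ependymal, 13 cortical excitatory neuron and 15 subventricular precursor genes was called by edgeR or limma-voom. At an unadjusted p under 0.05, 0, 1 and 5 of them were lower and 0 higher, and DESeq2 called 3 subventricular genes lower. edgeR called 3 subventricular genes lower without Sham 2 and 1 without EDB 3, and 1 cortical gene higher without Sham 2. Without Sham 2 and EDB 3 together it called 1 ependymal and 3 subventricular genes lower and 1 cortical gene higher. The part of these differences in the results above was not tested.

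**Figure D5:**
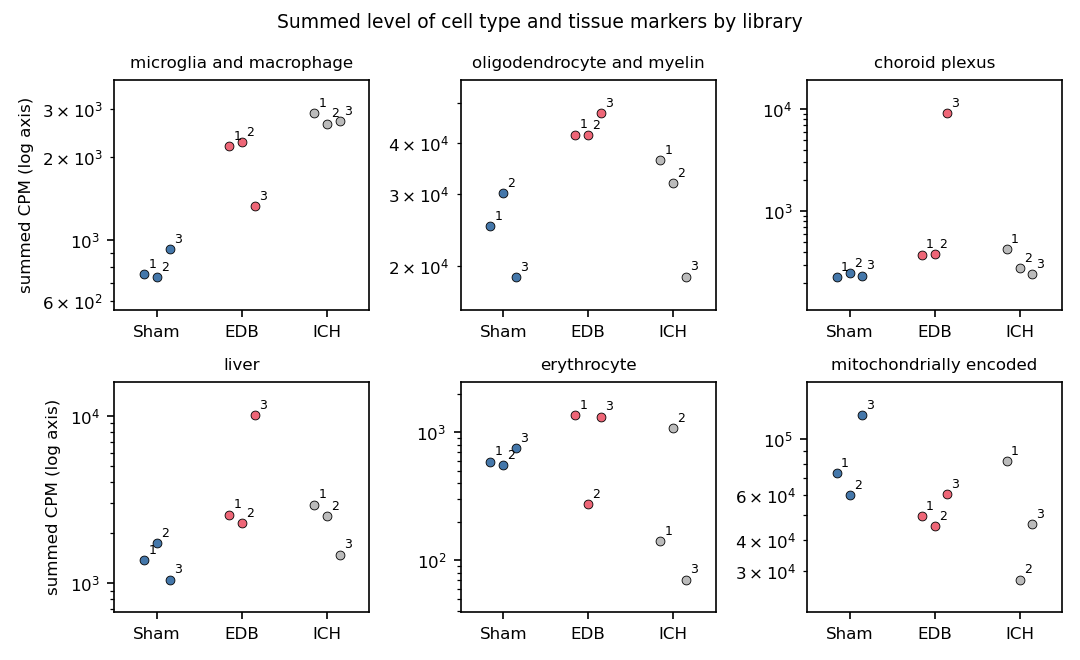
Summed level of the tested members of 6 marker lists in each library, in CPM on a log axis, with libraries numbered 1 to 3 within Sham, EDB and ICH. EDB libraries lie above Sham for microglial and oligodendrocyte lists, EDB 3 stands far above the other libraries for the choroid plexus list and for the liver list, which shares Ttr with it, and mitochondrially encoded transcripts are highest in Sham 3.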

How the data were processed

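Striatal RNA-seq was measured in 9 libraries, 3 each labelled Sham, ICH and EDB. The authors deposited read counts per gene, which per the submitters' processing notes involved cutadapt, HISAT2, HTSeq, limma and the build Rnor_6.0, with versions and roles not given in the sources used here. Of 22890 gene IDs, 4803 had no counts, and 16799 matched a symbol in a RefSeq table (GRCr8), which gave names and promoters only. Total counts ran from 14658110 to 17659936 per library; counting intervals (95%, exact) cover counting error only.

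The counts were fitted with edgeR 4.0.16 (R 4.3.3): filterByExpr by group, TMM scaling, the robust quasi-likelihood test over all 9 libraries, which share 1 estimate of the spread, and Benjamini-Hochberg adjustment over 14274 genes, with a call at an adjusted p under 0.05. CPM values are TMM-scaled. On simulated counts for EDB against Sham over 14147 genes, 80.9% of 4-fold, 40% of 2-fold and 11.3% of 1.5-fold changes were called, with 8 false calls. Only 68, 70 and 62 genes were changed by these folds. Counts were drawn from the spread fitted to these libraries, without differences in tissue composition. The rates in the real libraries may therefore differ. Alternatives were DESeq2 1.42.0, limma-voom (limma 3.58.1), other scalings and filters, a replicate block, only the 6 libraries, a minimum log2 fold change of 1, and each library left out; leaving out Sham 2 and EDB 3 together was added after seeing the data.

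Genes named by rule were the 10 largest called rises and 10 largest called falls with at least 5 CPM and no overlap, the 5 with the largest called difference from ICH, up to 4 members with the smallest p of each of 44 lists (829 genes, 721 tested), and 21 fixed genes. Of the 21, Bdnf was not tested because its counts were too low. Other list members were named after their values were seen. The comparison and the lists were chosen with earlier results of these data known. Some genes are not reported here.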

Additional observations from a re-analysis of the deposited data

How the results depend on the processing

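The 1094 genes called in EDB against Sham became 1796 with DESeq2 and 528 with a minimum log2 fold change of 1, and ran from 508 to 1661 when 1 library was left out. The 707 risen genes became 416 with that minimum and ran from 374 to 935. The 387 fallen genes became 752 with DESeq2, 251 with only the 6 libraries and 112 with the minimum, and ran from 134 to 726. The 98 genes called against ICH became 696 with DESeq2 and 182 with limma-voom and ran from 8 to 321. The 2670 genes called in ICH against Sham became 1189 with the minimum and ran from 1769 to 2624. Smaller sets of libraries or a stricter rule account by construction for part of these changes, and otherwise the cause was not tested.

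Deviations of same-numbered EDB and Sham libraries from their group means correlated at -0.311, -0.195 and -0.115. For libraries of different numbers the correlations ran from -0.137 to 0.332. With 3 libraries a group, whose deviations sum to 0, these values cannot tell whether the replicate numbers pair the libraries. With a replicate block, 801 genes were called in EDB against Sham, 228 of them fallen, and 58 against ICH. The calls of Aurka, Camk2a, Casp8, Fam227a, Fth1, Gbp2, Gclm, Osgin1 and Pdgfrb against Sham did not hold with the block (adjusted p = 0.0519 to 0.11). Nor did those of Ptgds, Slc1a2, Socs3, Stx1a, Tcte1, Tf, Vegfa and Vim (adjusted p = 0.0519 to 0.0935).

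With library size alone in place of TMM, 784 genes rose and 313 fell, and the median of all genes moved to -0.105 in EDB against ICH and 0.102 in ICH against Sham.

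Of 171 named genes that were called, 90 kept the call in every alternative run. Among named genes not called, the log2 fold change turned its sign in some of the settings that leave out 1 library, or Sham 2 and EDB 3 together, whose lowest and highest values were Aqp4 (-0.61 to 0.14), Cfap126 (-0.53 to 0.79), Drd1 (-0.12 to 0.34), Drd2 (-0.44 to 0.017), Nfe2l2 (-0.068 to 0.40), Ppp1r1b (-0.36 to 0.20), Rsph4a (-1.83 to 1.68), Slc22a6 (-0.67 to 2.16) and Tnf (-0.42 to 1.17). Drd2 was at 0.017 without Sham 2 and EDB 3 together and Nfe2l2 at -0.068 without Sham 2. Rsph4a was also at -0.40 with limma-voom and -0.052 with the replicate block. The cause was not tested. With 3 libraries a group, changes under 2-fold were mostly not called in simulated counts.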
